A study of Mus musculus with 16 samples.

Results

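Nuclear receptors are transcription factors whose activity is set by small lipid-soluble ligands such as oxysterols, retinoic acid, thyroid hormone, steroids and drugs, and some have no known natural ligand. The set described here holds 33 receptor genes of mouse liver, chosen by gene symbol alone: the xenobiotic, oxysterol, retinoid, thyroid hormone, steroid, PPAR and RXR receptors and a group of orphan receptors, with receptors of bile acids, of the core clock and of fatty acid oxidation left out. Of the 33 named genes, 32 had a probe set annotated with 1 symbol among the 19938 genes so covered. Nr1h2, the second oxysterol receptor, was not analysed here. Of those 32, 31 passed the filter on low values, as did 15908 genes in all. The exception, Hnf4g, lay below the filter on all 16 arrays, at 5.02, 5.26, 4.93 and 5.04 in S534A LPS arrays and at 5.12, 4.93, 4.90 and 4.87 in untreated WT arrays, on a log2 scale.

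Whole-liver RNA from male C57Bl/6 mice was hybridised to whole-transcript arrays in 4 groups of 4 samples. These were S534A given 1 mg/kg LPS, S534A untreated, WT given 1 mg/kg LPS and WT untreated. S534A mice carry a germline knock-in, bred to homozygosity, in which a serine of the NF-kB subunit p65 is replaced by alanine in every cell type. The line was made in embryonic stem cells, for which the labels name 2 clones, and backcrossed to C57Bl6/J, the source of the WT mice, and LPS is a bacterial endotoxin sensed through TLR4. The labels state neither age nor how long after LPS livers were taken. Untreated mice are not said to have had a vehicle injection, so injection and LPS cannot be told apart. The series' design text attaches the LPS dose to the untreated S534A livers as well, and sample titles, which call them untreated, were followed. The labels do not say whether each sample is a mouse of its own, and the p-values below therefore reflect sample-to-sample spread that may be technical.

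Most of these receptors bind copies of the hexamer AGGTCA or variants of it. RXR proteins are the shared partner of the xenobiotic, oxysterol, PPAR, retinoic acid, thyroid hormone and vitamin D receptors. Steroid receptors pair with themselves, and most of them bind other sequences. In hepatocytes nuclear receptors set drug clearance, cholesterol and lipid handling and hormone responses. A fall of several of them is a known feature of the acute-phase response of rodent liver. LPS acts on Kupffer cells, endothelium and hepatocytes alike, and p65 is among its main transcription factors.

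Promoter windows from RefSeq (GRCm38.p6), reaching from 250 bases before a gene's start through 50 bases from it, were held for 30 of the 33 receptors, as 48 windows of 32851 in all. The 4 windows below belong to receptors with large changes after LPS and show 1 searched motif each in capitals, written 5′ to 3′ on the gene's strand. Nr1i3 (plus strand) is shown with its E-box, CACGTG, the motif that clock activators bind. Rarb (minus strand) is shown with the response element of its own receptor class, a GGTTCA and an AGTTCA with 5 bases between them. Rara (plus strand) is shown with its NF-kB consensus matches, 3 in number, of which a pair overlap within the second stretch of capitals. Rxrg (plus strand), the receptor that rose, is shown with its copy of AGGTCA.
Nr1i3 chr1:171213720-171214019: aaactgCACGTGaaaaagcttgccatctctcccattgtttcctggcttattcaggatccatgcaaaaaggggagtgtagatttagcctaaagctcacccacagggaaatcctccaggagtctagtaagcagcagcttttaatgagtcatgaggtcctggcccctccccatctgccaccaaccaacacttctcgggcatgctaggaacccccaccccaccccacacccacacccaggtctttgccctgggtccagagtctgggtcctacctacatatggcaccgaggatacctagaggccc
Rarb chr14:16575427-16575726: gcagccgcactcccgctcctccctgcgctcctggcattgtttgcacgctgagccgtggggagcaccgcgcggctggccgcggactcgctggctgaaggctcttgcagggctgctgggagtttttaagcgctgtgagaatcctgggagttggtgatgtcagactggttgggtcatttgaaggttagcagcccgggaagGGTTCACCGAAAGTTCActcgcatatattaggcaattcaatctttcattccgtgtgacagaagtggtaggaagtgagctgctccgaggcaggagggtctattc
Rara chr11:98937446-98937745: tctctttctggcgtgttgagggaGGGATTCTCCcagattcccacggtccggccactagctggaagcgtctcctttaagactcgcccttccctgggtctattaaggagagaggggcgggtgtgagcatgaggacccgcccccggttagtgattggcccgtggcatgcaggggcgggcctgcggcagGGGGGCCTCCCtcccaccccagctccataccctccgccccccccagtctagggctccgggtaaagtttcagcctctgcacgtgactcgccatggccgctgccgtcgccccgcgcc
Rxrg chr1:167618015-167618314: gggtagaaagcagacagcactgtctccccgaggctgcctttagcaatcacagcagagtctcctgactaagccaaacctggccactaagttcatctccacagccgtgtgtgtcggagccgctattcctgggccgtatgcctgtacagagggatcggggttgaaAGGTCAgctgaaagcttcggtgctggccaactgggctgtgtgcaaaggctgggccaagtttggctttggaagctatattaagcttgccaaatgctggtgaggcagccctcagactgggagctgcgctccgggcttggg

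Both strands of every window were searched, and matches are letters in a window, not shown binding sites. AGGTCA was found in 18.8% of the receptors' windows and in 16.3% of all windows. Its direct repeat with 1 base between the copies was in 0 of the 48 and in 13 of all 32851. The GGTTCA and AGTTCA pair 5 bases apart was found in 2 of all 32851 windows, and 1 of them was that of Rarb, 53 bases before the start. CACGTG was in 8.33% of the receptors' windows (Nr1i3, Rara and Thrb) against 7.15% of all windows, and in Nr1i3 it began 244 bases before the start. The NF-kB consensus matched 16.7% of the receptors' windows and 8.46% of all windows, in Nr2c2, Nr2f6, Nr4a1, Rara and Rxrb. The 8 matching windows came from 5 genes, and some windows of the same gene overlap. The GC box, GGGCGG, was in 47.9% against 35.7%, the cyclic AMP response element, TGACGTCA, in 2.08% (Nr6a1) against 1.79%, and the interferon response motif, GAAA repeated after 2 bases, in 4.17% (Esr1 and Rarg) against 3.44%.

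After LPS, nuclear receptor transcripts were mostly lower in both genotypes. In S534A livers 19 of the 31 tested receptors were lower and 3 higher at a limma adjusted p under 0.05, and in WT livers 20 were lower and 2 higher. The background was 45.4% of all genes called in S534A and 44.9% in WT, with 31.2% and 29.9% lower and 14.2% and 14.9% higher, so the receptors' 61.3% and 64.5% lower stood above the share of all genes. Their median change was −0.52 in S534A and −0.51 in WT, beside −0.03 and −0.05 over all genes, where −1 on this log2 scale is a 2-fold fall. At least 2-fold falls were called for 7 receptors in S534A and 5 in WT, against 4.26% and 3.68% of all genes, and 1 in each, Rxrg, rose by as much, against 4.27% and 4.48%. At 1.5-fold or more in either direction, 13 receptors were called in S534A and 11 in WT, against 20.7% and 19.9% of all genes. In each genotype 23 of 31 receptors had LPS and untreated arrays that did not overlap, against 48.1% of all genes in S534A and 38.3% in WT. The genotypes shared 21 of these calls in the same direction, 19 lower and 2 higher, and no LPS sample is common to them. Both comparisons used the same estimate of each gene's spread, from all 16 arrays, so their calls are not independent. Receptors called in neither genotype were Esr1, Nr3c1, Pgr, Vdr, Nr2f1, Nr4a1, Nr4a2 and Esrrg.

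**Figure D1:**
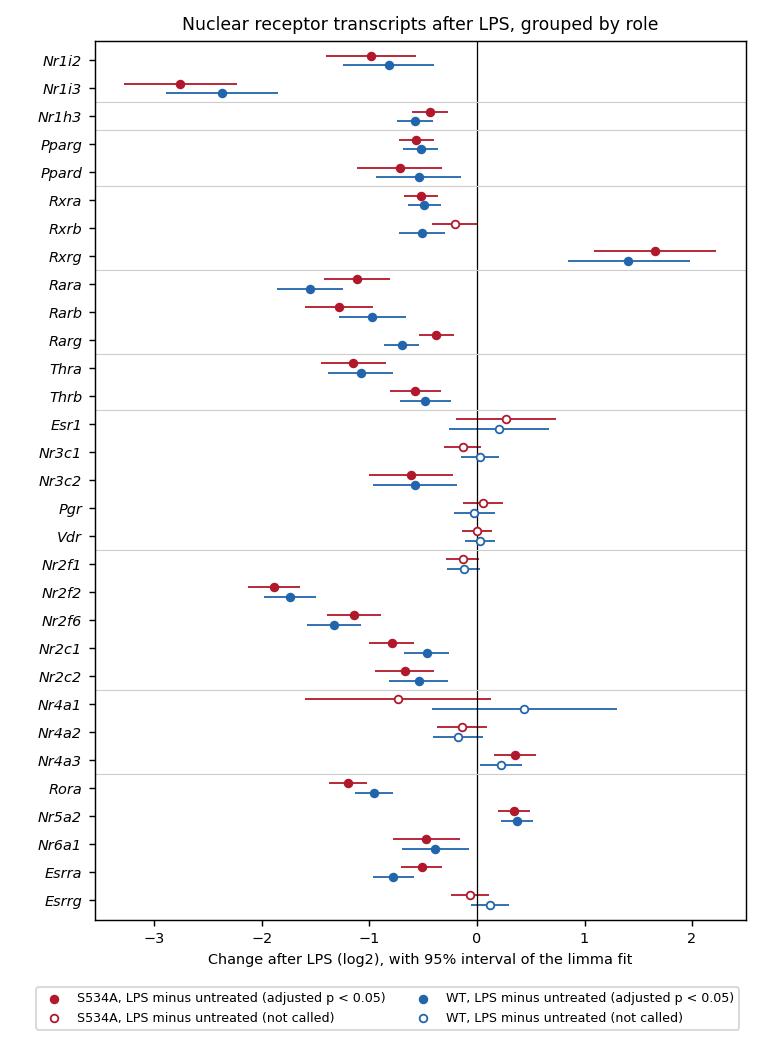
Change of each of the 31 tested receptors after LPS (x axis, log2 of LPS over untreated, with the 95% interval of the limma fit), S534A in red above WT in blue, grouped by role from top to bottom, filled where the adjusted p is under 0.05. Most points lie left of 0, with Nr1i3 farthest left (−2.76 in S534A and −2.37 in WT) and Rxrg farthest right (1.66 and 1.41).

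No value was missing, and the first principal component, with 78.5% of the variance, placed LPS arrays between 34.5 and 44.2 and untreated arrays between −44.0 and −39.6. Rela, the gene that encodes p65, differed by 0.00 ± 0.08 between S534A and WT after LPS and by −0.19 ± 0.08 without treatment (limma adjusted p of 0.9996 and 0.486), which does not check the genotype, since the change is a point substitution. Of 9 hepatocyte markers 1 fell and 0 rose in S534A and 1 fell and 1 rose in WT (4 and 3 falls with median centring), with array means of 13.44 to 13.48 in S534A LPS arrays and 13.48 to 13.55 in untreated ones, and 13.48 to 13.53 in WT LPS arrays and 13.48 to 13.58 in untreated ones. Markers of other cells moved with LPS. In both genotypes 11 of 13 Kupffer cell, 10 of 12 sinusoidal endothelial and 9 of 12 stellate cell and fibroblast markers fell, with 1 (Marco), 2 (Lyve1 and Cdh5) and 0 higher, and 11 of 11 neutrophil markers rose. The array mean of the endothelial list was 8.29 to 8.62 in S534A LPS and 9.68 to 9.87 in untreated S534A arrays, and 8.41 to 8.84 in WT LPS and 9.70 to 9.85 in untreated WT arrays. Among 3 monocyte markers 2 were higher and 1 lower in S534A (1 and 1 in WT), among 8 T, NK and B cell markers 1 and 2 (1 and 3 in WT), and among 4 cholangiocyte markers 1 and 1 in each genotype. Counts in these short lists and the endothelial rises (1 in place of 2) moved by 1 or 2 when single arrays were left out. In whole tissue, fewer cells of a type and less RNA per cell cannot be told apart, and the part of these shifts in the receptors' changes was not tested.

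Both xenobiotic receptors were lower, and Nr1i3 had the largest fall of the 31 in both genotypes. Nr1i3 encodes CAR, a hepatocyte receptor that switches on drug-clearing enzymes, and Nr1i2 encodes PXR, its relative that binds drugs and bile acids directly. Nr1i3 stood at 8.15, 8.34, 8.90 and 8.77 in S534A LPS arrays, against 11.23, 11.58, 11.03 and 11.34 in untreated S534A arrays. The WT values were 8.38, 9.03, 8.23 and 8.73 after LPS, against 10.38, 11.31, 10.59 and 11.59 without treatment. All 8 LPS arrays lay below all 8 untreated ones, with a change of −2.76 ± 0.25 in S534A (6.76-fold) and −2.37 ± 0.25 in WT (5.19-fold; SE, n = 4 per group; limma adjusted p = 1.07e-07 and 6.37e-07). Nr1i2 averaged 9.13 ± 0.52 in S534A LPS arrays and 10.12 ± 0.09 in untreated S534A arrays (SD, n = 4 each), a change of −0.99 ± 0.20 (limma adjusted p = 0.000564). In WT it averaged 9.14 ± 0.17 after LPS and 9.96 ± 0.31 without treatment, a change of −0.82 ± 0.20 (adjusted p = 0.00259). The wide spread of Nr1i2 in S534A after LPS came from array 2, at 8.37, while the other arrays lay between 9.20 and 9.49.

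Among genes that CAR and PXR switch on, median changes were small. Over all genes, the background of each pathway list, 31.2% fell and 14.2% rose in S534A, and 29.9% and 14.9% in WT. Of 25 tested target genes 9 fell and 1 rose in S534A, and 2 fell and 2 rose in WT, with medians of −0.21 and −0.06. Leaving out untreated WT array 1 gave 5 lower in WT, and for the rises, leaving out untreated S534A array 3 gave 3 and S534A LPS array 4 gave 2 in S534A, and WT LPS array 4 gave 1 in WT. Abcc2, an export pump of conjugates, changed by −0.90 ± 0.11 in S534A and −0.72 ± 0.11 in WT, and Ugt2b34, a glucuronidating enzyme, by −0.56 ± 0.09 and −0.42 ± 0.09 (limma adjusted p from 2.85e-06 to 0.000856). Gadd45b, a stress gene that is also a CAR target, rose by 2.73 ± 0.31 in S534A and 3.20 ± 0.31 in WT. With median centring 6 fell in WT. No gene of this list passed the test for a different LPS effect between genotypes.

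The oxysterol receptor was lower, as were most of its target genes. Nr1h3 encodes LXR alpha, which senses oxysterols and drives cholesterol disposal and lipogenesis. Nr1h3 stood at 9.89, 9.84, 10.13 and 9.97 in S534A LPS arrays, against 10.37, 10.33, 10.39 and 10.47 in untreated S534A arrays. In WT arrays Nr1h3 read 10.03, 10.21, 9.95 and 10.05 after LPS, against 10.72, 10.50, 10.63 and 10.72 in untreated ones. LPS and untreated arrays did not overlap in either genotype, and the change was −0.44 ± 0.08 in S534A and −0.58 ± 0.08 in WT (limma adjusted p = 0.000225 and 1.30e-05). Of 16 LXR target genes 11 fell and 1 rose in each genotype, with medians of −0.57 in S534A and −0.67 in WT. The exception was Abca1, the cholesterol exporter, higher by 1.42 ± 0.09 in S534A and 1.55 ± 0.09 in WT. Among the falls, Cyp7a1, which starts bile acid synthesis and is an LXR target in rodents, changed by −5.99 ± 0.40 in S534A and −5.01 ± 0.40 in WT. Lpcat3, a phospholipid-remodelling enzyme, changed by −1.58 ± 0.10 and −1.38 ± 0.10. Cd5l, a macrophage secreted protein that also stands among the Kupffer cell markers, changed by −1.86 ± 0.15 and −1.76 ± 0.15, beside 11 of 13 Kupffer cell markers lower. The array mean of that list was 7.78 to 8.08 in S534A LPS and 8.86 to 9.33 in untreated S534A arrays, and 7.99 to 8.36 in WT LPS and 9.12 to 9.58 in untreated WT arrays, and its part in these changes was not tested.

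The PPARs of the set, Pparg, which governs fat storage, and Ppard, a broadly expressed fatty acid sensor, were both lower. Pparg averaged 8.26 ± 0.13 in S534A LPS arrays and 8.83 ± 0.12 in untreated S534A arrays (SD, n = 4 each), a change of −0.57 ± 0.08. In WT it averaged 8.33 ± 0.03 after LPS and 8.86 ± 0.08 without treatment, a change of −0.52 ± 0.08 (limma adjusted p = 1.13e-05 in S534A and 2.66e-05 in WT). Ppard changed by −0.72 ± 0.19 in S534A (adjusted p = 0.00436) and −0.54 ± 0.19 in WT (adjusted p = 0.0249). The WT call for Ppard was lost without untreated array 1 or 3 or LPS array 1 or 3 (adjusted p of 0.0528 to 0.0880). It was also lost without the 3 arrays of shifted clock described below, at a change of −0.31 (0.0847). Of 17 PPAR target genes 3 rose and 2 fell in S534A and 4 rose and 1 fell in WT, with 5 rises in S534A without untreated WT array 4 or WT LPS array 3, 7 with array quality weights, and 1 in WT without the 3 clock arrays. The falls numbered 1 in S534A without S534A LPS array 2 and 2 in WT without untreated WT array 1. Angptl4, a lipase inhibitor, changed by 0.45 ± 0.22 in S534A (adjusted p = 0.103) and rose by 1.01 ± 0.22 in WT (0.00102). It passed in S534A without untreated WT array 1 or 4 (0.0459 and 0.0342).

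The RXR partners went different ways. Rxra is the main hepatic RXR, Rxrb is found in most tissues, and Rxrg is known mainly from muscle and brain. Rxra stood at 10.86, 10.83, 10.76 and 10.73 in S534A LPS arrays, against 11.35, 11.34, 11.21 and 11.37 in untreated S534A arrays. For WT, the levels were 10.91, 10.98, 10.92 and 10.87 with LPS, against 11.32, 11.54, 11.24 and 11.53 without it. The fall was small and regular, −0.52 ± 0.07 in S534A and −0.49 ± 0.07 in WT (limma adjusted p = 1.80e-05 and 3.64e-05), with no overlap. Rxrb changed by −0.20 ± 0.10 in S534A, which did not pass (adjusted p = 0.113), and by −0.51 ± 0.10 in WT (adjusted p = 0.000524). The difference of those effects was 0.30 ± 0.14, with an adjusted p of 0.951. Rxrb passed in S534A with median centring, array quality weights or only the groups compared (0.0134 to 0.0343).

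Rxrg was the only receptor to rise by 2-fold, and stood at 9.23, 9.58, 9.62 and 9.86 in S534A LPS arrays, against 7.54, 7.46, 8.51 and 8.15 in untreated S534A arrays. WT LPS arrays read 9.78, 9.80, 9.21 and 9.73, against 8.66, 7.58, 8.80 and 7.85 in untreated WT arrays. No untreated array reached the lowest LPS array of its genotype, although untreated levels themselves spread over more than 1 log2 unit in each genotype. The rise was 1.66 ± 0.27 in S534A (3.15-fold, limma adjusted p = 7.35e-05) and 1.41 ± 0.27 in WT (2.66-fold, 0.000350).

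**Figure D2:**
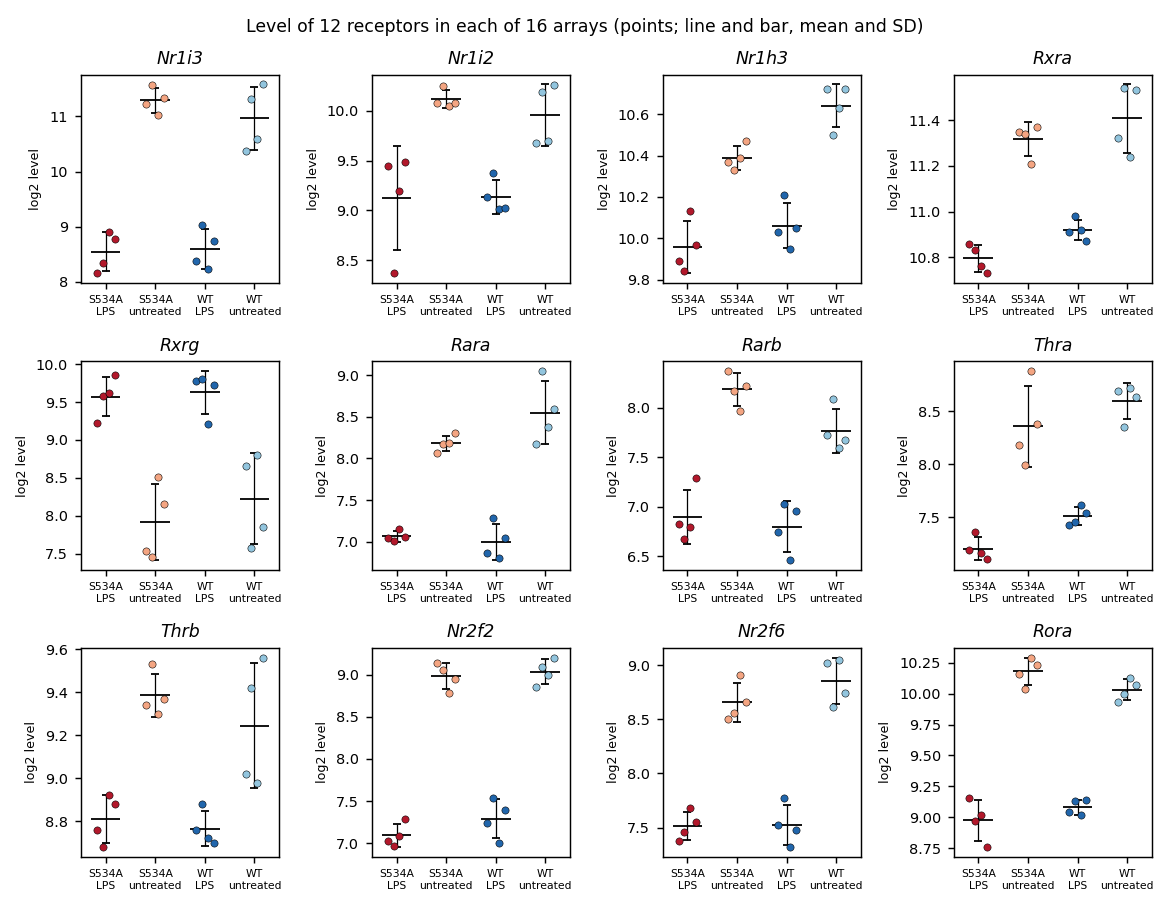
Log2 level of 12 receptors (y axes) in each of the 16 arrays, from left to right S534A LPS, S534A untreated, WT LPS and WT untreated, with the mean as a line and the SD as a bar (n = 4 per group). LPS arrays lie below the untreated arrays of their genotype in 11 panels and above them in that of Rxrg; each panel has its own scale, and levels are not comparable between genes.

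Retinoic acid receptors, which carry the response to the vitamin A metabolite retinoic acid, were lower throughout. Rara stood at 7.04, 7.01, 7.15 and 7.05 in S534A LPS arrays, against 8.07, 8.17, 8.18 and 8.30 in untreated S534A arrays. The WT values were 6.86, 7.29, 6.80 and 7.04 after LPS, against 8.17, 9.05, 8.38 and 8.59 without treatment. The change was −1.12 ± 0.14 in S534A and −1.55 ± 0.14 in WT, with no overlap (limma adjusted p = 7.45e-06 and 1.76e-07). Rarb, whose promoter is shown above with the retinoic acid element, stood at 6.83, 6.67, 6.80 and 7.29 in S534A LPS arrays, against 8.37, 8.17, 7.97 and 8.22 in untreated S534A arrays. In WT arrays Rarb read 6.74, 7.03, 6.46 and 6.96 after LPS, against 7.72, 8.09, 7.59 and 7.67 in untreated ones. It changed by −1.28 ± 0.15 in S534A and −0.97 ± 0.15 in WT (adjusted p = 2.22e-06 and 4.44e-05). Rarg averaged 6.66 ± 0.13 in S534A LPS arrays and 7.04 ± 0.07 in untreated ones, and 6.51 ± 0.13 in WT LPS arrays and 7.21 ± 0.04 in untreated ones (SD, n = 4 each). Its changes were −0.38 ± 0.08 in S534A and −0.70 ± 0.08 in WT (adjusted p = 0.000589 and 1.14e-06).

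Of 13 tested genes of retinoid handling and response, 6 fell and 1 rose in S534A and 4 fell and 1 rose in WT (2 rises without untreated S534A array 3 in S534A or untreated WT array 3 in WT, and 7 falls in WT with median centring). Of all genes 31.2% fell in S534A and 29.9% in WT. Lrat, which stores retinol as ester and also stands among the stellate cell markers, changed by −2.13 ± 0.18 in S534A and −1.55 ± 0.18 in WT (limma adjusted p = 3.77e-08 and 1.60e-06). Stellate cell and fibroblast markers as a list had array means of 8.03 to 8.22 in S534A LPS and 8.75 to 8.89 in untreated S534A arrays, and 8.07 to 8.28 in WT LPS and 8.80 to 8.86 in untreated WT arrays, and their part in the change was not tested. The retinal reductases Rdh11 and Dhrs3 changed by −1.30 ± 0.14 and −0.92 ± 0.14 in S534A and by −0.80 ± 0.14 and −0.65 ± 0.14 in WT. Tgm2, a transglutaminase induced by retinoic acid, rose by 2.53 ± 0.15 in S534A and 2.30 ± 0.15 in WT.

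Both thyroid hormone receptors were lower. Thrb is the main form of hepatocytes and Thra prevails in most other tissues. Thra stood at 7.19, 7.36, 7.16 and 7.11 in S534A LPS arrays, against 8.18, 7.99, 8.88 and 8.38 in untreated S534A arrays. For WT, the levels were 7.43, 7.46, 7.62 and 7.54 with LPS, against 8.69, 8.35, 8.72 and 8.63 without it. Every LPS array lay below every untreated array of its genotype, with changes of −1.15 ± 0.14 in S534A and −1.08 ± 0.14 in WT (limma adjusted p = 4.31e-06 and 8.43e-06). Thra shares its locus with the clock gene Nr1d1 on the opposite strand. Thrb stood at 8.76, 8.68, 8.92 and 8.88 in S534A LPS arrays, against 9.34, 9.53, 9.30 and 9.37 in untreated S534A arrays. WT LPS arrays read 8.76, 8.88, 8.72 and 8.70, against 9.02, 9.42, 8.98 and 9.56 in untreated WT arrays. It changed by −0.57 ± 0.11 in S534A and −0.48 ± 0.11 in WT (adjusted p = 0.000439 and 0.00203), again with no overlap. Of 12 thyroid hormone target genes 3 rose and 5 fell in S534A, and 2 rose and 4 fell in WT, with medians of −0.04 and −0.02. The citrate carrier Slc25a1 changed by −0.39 ± 0.06 in S534A and −0.41 ± 0.06 in WT, while Bcl3 rose by 2.05 ± 0.19 and 1.70 ± 0.19. Bcl3 is also an NF-kB target gene.

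Steroid hormone and vitamin D receptors showed 1 call among 5, Nr3c2. Nr3c1, the glucocorticoid receptor through which cortisol or corticosterone acts, was not called. Nr3c1 stood at 9.52, 9.69, 9.53 and 9.57 in S534A LPS arrays, against 9.93, 9.59, 9.61 and 9.71 in untreated S534A arrays. The WT values were 9.64, 9.53, 9.50 and 9.59 after LPS, against 9.42, 9.52, 9.52 and 9.69 without treatment. Its groups overlapped, and the change was −0.13 ± 0.08 in S534A and 0.03 ± 0.08 in WT (limma adjusted p = 0.202 and 0.832), with 95% intervals of −0.31 to 0.04 and −0.15 to 0.20. With arrays centred on their medians the S534A change was −0.23 and passed (0.0426). Nr3c2, the mineralocorticoid receptor, averaged 7.42 ± 0.19 in S534A LPS arrays and 8.03 ± 0.36 in untreated S534A arrays, and 7.38 ± 0.18 in WT LPS arrays and 7.96 ± 0.38 in untreated WT arrays (SD, n = 4 each). The S534A groups overlapped at 7.53 in untreated array 3. It changed by −0.62 ± 0.18 in S534A and −0.58 ± 0.18 in WT (limma adjusted p = 0.0114 and 0.0164). The WT call was lost without untreated array 2 or 4 or LPS array 3 (0.0545 to 0.0617), and the WT change was −0.91 without the 3 arrays of shifted clock.

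Esr1, the oestrogen receptor of hepatocytes, changed by 0.27 ± 0.22 in S534A and 0.21 ± 0.22 in WT (limma adjusted p = 0.340 and 0.505), with intervals of −0.19 to 0.74 and −0.26 to 0.67. Pgr, the progesterone receptor, and Vdr, the vitamin D receptor, stayed between 5.04 and 5.72 on all arrays. The filter level of an array was 5.25 to 5.44, and Pgr passed it on 4 of 16 arrays. Their changes lay between −0.02 and 0.06. Of 21 glucocorticoid target genes 10 rose and 2 fell in S534A and 12 rose and 2 fell in WT, with medians of 0.46 and 0.66. In WT 1 fall was called without untreated array 1 or 2 or LPS array 1 or 3. The metallothioneins Mt1 and Mt2 rose by 3.52 ± 0.15 and 3.25 ± 0.28 in S534A and by 3.52 ± 0.15 and 3.66 ± 0.28 in WT, and Cebpd, an acute-phase transcription factor, by 1.74 ± 0.11 and 1.76 ± 0.11. Lcn2, a siderophore-binding protein, rose by 4.77 ± 0.29 in S534A and 4.30 ± 0.29 in WT. Several genes of this list are also targets of inflammatory cytokines.

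The COUP-TF and testicular receptors bind AGGTCA repeats in competition with other receptors. Nr2f2, encoding COUP-TFII, stood at 7.03, 6.97, 7.09 and 7.29 in S534A LPS arrays, against 9.14, 9.06, 8.78 and 8.95 in untreated S534A arrays. In WT arrays Nr2f2 read 7.24, 7.54, 7.0 and 7.39 after LPS, against 8.85, 9.09, 8.99 and 9.20 in untreated ones. It had the smallest limma p of all 31 receptors in both genotypes, with changes of −1.89 ± 0.12 in S534A (3.70-fold, adjusted p = 8.78e-10) and −1.74 ± 0.12 in WT (3.33-fold, 2.50e-09). Nr2f2 is known from venous endothelium and mesenchyme as well as hepatocytes. The part of the sinusoidal endothelial and stellate cell lists given above in its fall was not tested. Nr2f6 (EAR2) stood at 7.38, 7.46, 7.68 and 7.55 in S534A LPS arrays, against 8.50, 8.56, 8.91 and 8.66 in untreated S534A arrays. For WT, the levels were 7.52, 7.77, 7.32 and 7.48 with LPS, against 9.02, 8.61, 9.05 and 8.74 without it. The changes were −1.14 ± 0.12 in S534A and −1.33 ± 0.12 in WT (adjusted p = 6.11e-07 and 1.02e-07), with no overlap. Nr2c1 changed by −0.79 ± 0.10 in S534A and −0.47 ± 0.10 in WT, and Nr2c2 by −0.67 ± 0.13 and −0.54 ± 0.13 (adjusted p from 5.24e-06 to 0.00248). Nr2f1, encoding COUP-TFI, was at 5.86 to 6.28 on all arrays and changed by −0.13 ± 0.07 in S534A and −0.12 ± 0.07 in WT (0.153 and 0.187). It passed in both genotypes with median centring or a second quantile normalization, and in S534A with array quality weights (0.00886).

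Among the remaining orphan receptors Rora, which activates clock and lipid genes, fell most. Rora stood at 9.16, 8.97, 9.02 and 8.76 in S534A LPS arrays, against 10.16, 10.04, 10.29 and 10.23 in untreated S534A arrays. WT LPS arrays read 9.04, 9.13, 9.02 and 9.14, against 9.93, 10.00, 10.13 and 10.07 in untreated WT arrays. The groups lay well apart, and the change was −1.20 ± 0.08 in S534A and −0.95 ± 0.08 in WT (limma adjusted p = 4.44e-09 and 8.16e-08). Esrra, a regulator of mitochondrial genes, averaged 7.49 ± 0.05 in S534A LPS and 8.01 ± 0.16 in untreated S534A arrays, and 7.35 ± 0.14 in WT LPS and 8.13 ± 0.11 in untreated WT arrays (SD, n = 4 each). It changed by −0.51 ± 0.09 in S534A and −0.78 ± 0.09 in WT (adjusted p = 0.000140 and 1.84e-06). Nr5a2, encoding LRH-1, a driver of bile acid genes, rose by 0.34 ± 0.07 in S534A and 0.37 ± 0.07 in WT (0.000662 and 0.000325). Nr6a1, known from germ cells, changed by −0.47 ± 0.15 in S534A (0.0147) and −0.39 ± 0.15 in WT (0.0400). The WT call was lost without untreated array 1, 2 or 3 or any LPS array (0.0549 to 0.109), and the S534A change was −0.27 without untreated S534A array 3. Esrrg changed by −0.07 ± 0.08 and 0.12 ± 0.08 (0.551 and 0.263).

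NR4A receptors are immediate early genes with no known natural ligand, induced within a short time by stress and cytokines. Nr4a1 had the widest spread of the set in any group, with an SD of 1.25 in untreated WT arrays, above 99.9% of genes there, and its values are given for that reason, chosen after they were seen. Nr4a1 stood at 7.79, 7.89, 7.96 and 8.01 in S534A LPS arrays, against 8.02, 8.94, 8.95 and 8.68 in untreated S534A arrays. The WT values were 7.86, 8.14, 7.82 and 7.82 after LPS, against 6.62, 9.32, 7.01 and 6.94 without treatment. The 4 untreated S534A arrays lay above all S534A LPS arrays, while untreated WT array 2 stood alone at 9.32, the highest of all 16, above the other untreated WT arrays at 6.62 to 7.01. With all arrays Nr4a1 changed by −0.74 ± 0.41 after LPS in S534A and 0.44 ± 0.41 in WT (limma adjusted p = 0.158 and 0.433). Untreated S534A and WT livers differed by 1.18 ± 0.41 (0.384), and the LPS effects by −1.17 ± 0.58 (0.951).

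Without untreated WT array 2, Nr4a1 passed each of these: S534A against WT without treatment at 1.80 (limma adjusted p = 0.000289), LPS in WT at 1.06 (0.000155), LPS in S534A at −0.74 (0.00159) and the interaction at −1.79 (0.0315). That array lay above every untreated S534A array, so these p-values rest on removing a contrary value and carry no weight of their own. The S534A change kept its size, and its standard error is estimated from all 4 groups. With array quality weights, which down-weight deviating arrays, the untreated genotype difference was 1.45 (0.0341) and the LPS change in S534A −0.74 (0.0274). After LPS all 8 arrays of both genotypes lay between 7.79 and 8.14. Nr4a3 stayed close to the filter level, with array values of 5.22 to 5.96. It changed by 0.35 ± 0.09 in S534A (0.00489) and 0.22 ± 0.09 in WT (0.0636), and the WT change passed without untreated WT array 3 or S534A LPS array 1 or 3 (0.0335 to 0.0451). Nr4a2 changed by −0.14 ± 0.11 in S534A and −0.18 ± 0.11 in WT (0.329 and 0.213), and the WT change passed with median centring (0.0464).

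**Figure D3:**
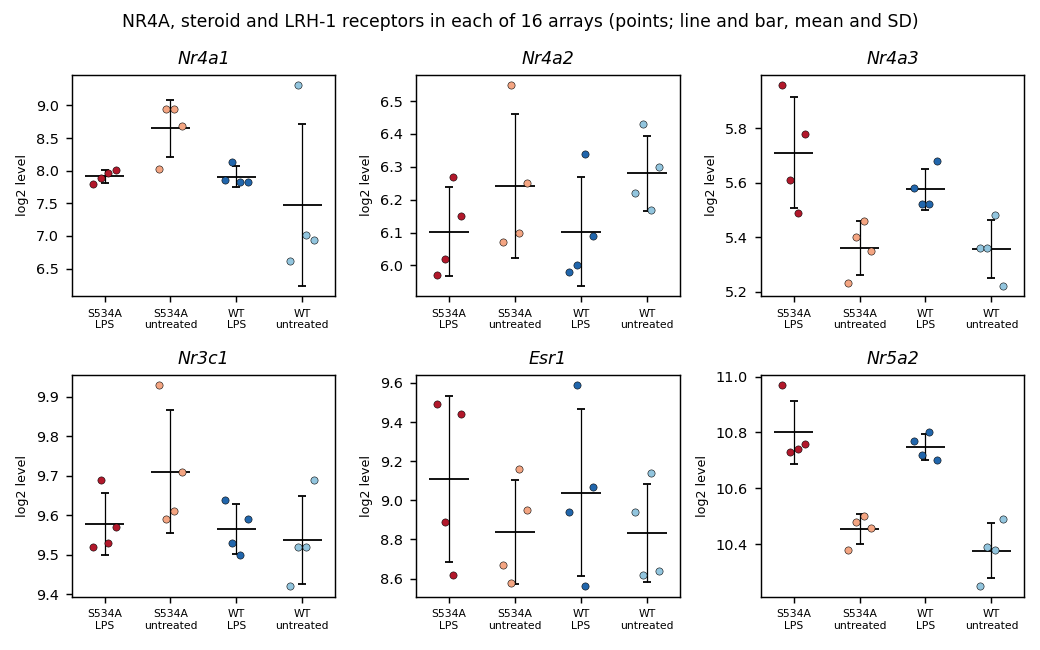
Log2 level of Nr4a1, Nr4a2, Nr4a3, Nr3c1, Esr1 and Nr5a2 (y axes, each with its own scale) in each of the 16 arrays, from left to right S534A LPS, S534A untreated, WT LPS and WT untreated, with mean and SD (n = 4 per group). In the Nr4a1 panel 1 untreated WT array lies at 9.32 and the other 3 between 6.62 and 7.01, while the untreated S534A arrays lie between 8.02 and 8.95; in the Nr5a2 panel all LPS arrays lie above all untreated ones.

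Between genotypes no receptor passed in any comparison. S534A against WT after LPS gave 0 of 31 (background 0%), S534A against WT without treatment 0 of 31 (background 0.0126%, with 0.00629% higher, 0.00629% lower and 0.00629% at least 2-fold higher) and the interaction 0 of 31 (background 0%), by limma at an adjusted p under 0.05. At an unadjusted p under 0.05 there were 1, 5 and 4 of 31, against 3%, 8.88% and 4.82% of all genes. After LPS the lowest p was that of Thra, at 7.19, 7.36, 7.16 and 7.11 in S534A against 7.43, 7.46, 7.62 and 7.54 in WT, a difference of −0.31 ± 0.14 (limma adjusted p = 0.9996). The S534A arrays lay below the WT arrays without overlap, as for 2.03% of all genes. Rarg (0.16 ± 0.08) and Nr2f2 (−0.20 ± 0.12) followed.

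Without treatment the lowest p belonged to Nr1h3, at 10.37, 10.33, 10.39 and 10.47 in S534A against 10.72, 10.50, 10.63 and 10.72 in WT. The difference was −0.25 ± 0.08 (limma adjusted p = 0.329), with no overlap, as for 5.69% of all genes. Nr4a1 (1.18 ± 0.41) and Rarb (0.41 ± 0.15, adjusted p = 0.413) came next. For the difference of LPS effects (S534A minus WT), Rarg had the lowest p at 0.32 ± 0.11 (adjusted p = 0.951), from a fall of smaller size in S534A, followed by Nr2c1 at −0.32 ± 0.14 and Rara at 0.44 ± 0.21. Over the 31 receptors the differences ran from −0.31 to 0.16 after LPS and from −0.37 to 1.18 without treatment, and the median standard error was 0.11. Apart from Nr4a1, intervals of the difference after LPS lay within −0.63 to 0.53.

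Untreated livers differed among themselves in clock gene levels. A clock score, in which the log2 level of Arntl is subtracted from the average of Per1, Per2, Per3, Tef and Dbp, centred over the 16 arrays and taken over from an earlier analysis of these data, was 2.42, 2.50, −3.46 and 0.05 in untreated S534A arrays and −2.60, 2.53, −2.68 and 2.56 in untreated WT arrays. LPS arrays lay between −1.61 and 0.73. Untreated S534A array 3 and untreated WT arrays 1 and 3 thus stood apart. Rxrg was higher in these 3 (8.51, 8.66 and 8.80) than in the other 5 untreated arrays (7.46 to 8.15), and in part Nr6a1 (7.93 to 8.63 against 7.63 to 7.95) and Ppard (8.65 to 9.27 against 8.20 to 8.82). Thra (8.69 to 8.88 against 7.99 to 8.63) and Nr2f6 (8.91 to 9.05 against 8.50 to 8.74) were also higher in these 3, without overlap. Nr3c2 was lower in them (7.53 to 7.64 against 8.03 to 8.37), as were Nr1i3 (10.38 to 11.03 against 11.23 to 11.59) and Thrb (8.98 to 9.30 against 9.34 to 9.56). The same held by smaller gaps for Nr1i2 (9.68 to 10.05 against 10.08 to 10.26) and Rxra (11.21 to 11.32 against 11.34 to 11.54). The share of all genes that set these 3 arrays apart from the other 5 without overlap was not counted. These separations therefore cannot be called particular to the receptors.

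These groups of arrays were defined from clock genes of the same arrays, so the receptor values are a description. Without the 3 arrays Rxrg rose by 1.85 ± 0.19 in S534A and 1.92 ± 0.21 in WT, and Nr1i3 changed by −2.85 ± 0.20 and −2.86 ± 0.22 (limma adjusted p from 3.15e-08 to 5.18e-06). Thrb then changed by −0.60 ± 0.08 in S534A and −0.72 ± 0.10 in WT, and Nr3c2 by −0.78 ± 0.12 and −0.91 ± 0.14. Nr6a1 changed by −0.27 ± 0.08 and −0.26 ± 0.09, still past the threshold (0.0101 and 0.0259). Time of day or feeding at collection is not labelled, and its part in these values was not tested.

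**Figure D4:**
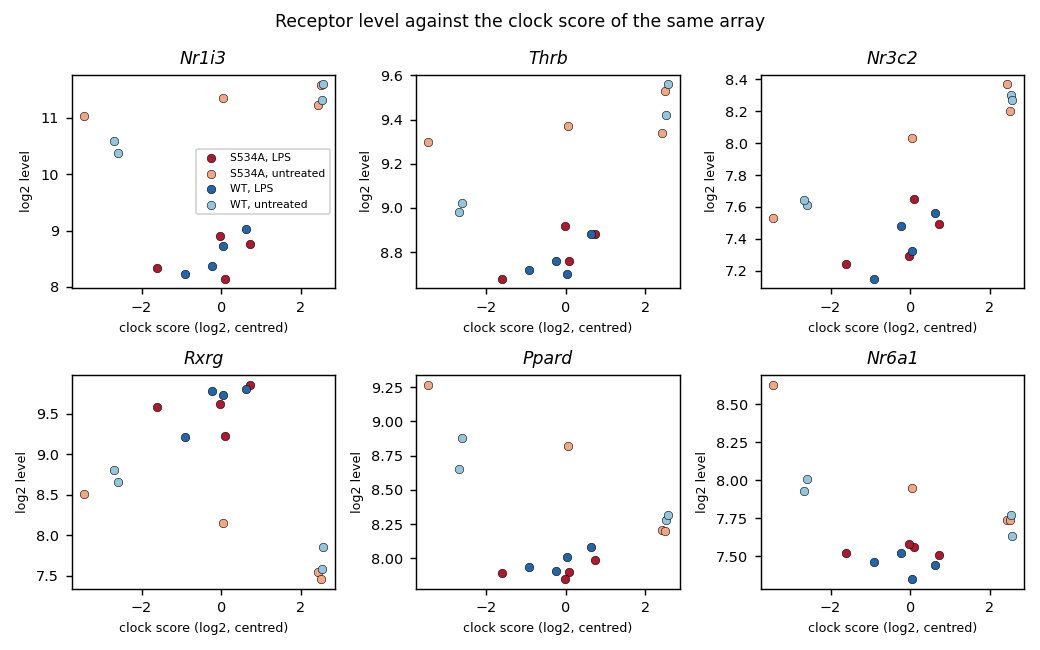
Log2 level of 6 receptors (y axes) against the clock score of the same array (x axis, log2, centred) for the 16 arrays, coloured by group. Among untreated arrays, Nr1i3, Thrb and Nr3c2 lie lower and Rxrg higher in the 3 arrays with scores of −2.60 or below, while LPS arrays lie between −1.61 and 0.73.

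Receptors act through coactivators and corepressors, and through enzymes that make or clear their ligands. Of 27 tested coregulators 13 fell and 6 rose in S534A and 9 fell and 8 rose in WT. The corepressor subunits Hdac3 and Tbl1x changed by −0.73 ± 0.08 and −0.64 ± 0.06 in S534A and by −0.51 ± 0.08 and −0.65 ± 0.06 in WT, while Tbl1xr1, a close relative of Tbl1x, rose by 0.80 ± 0.10 and 0.91 ± 0.10 (limma adjusted p from 1.38e-07 to 3.44e-05). With median centring 3 coregulators rose in S534A in place of 6. Of 17 ligand enzymes 10 fell and 1 rose in S534A and 7 fell and 1 rose in WT (11 falls in WT with median centring, 4 without the 3 clock arrays). Ch25h, which makes the oxysterol 25-hydroxycholesterol, rose by 3.36 ± 0.19 in S534A and 3.21 ± 0.19 in WT. The steroid reductase Akr1d1 changed by −0.84 ± 0.08 and −0.54 ± 0.08, and the vitamin D hydroxylase Cyp2r1 by −1.0 ± 0.10 and −0.88 ± 0.10.

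Of 14 target genes of the oestrogen receptor, HNF4 and LRH-1, 6 fell and 0 rose in S534A and 5 fell and 0 rose in WT (9 falls in WT with median centring). They included Cyp8b1, an enzyme of cholic acid synthesis, at −1.85 ± 0.15 in S534A and −1.30 ± 0.15 in WT, and the lipoprotein assembly gene Mttp at −0.44 ± 0.08 and −0.45 ± 0.08 (limma adjusted p from 4.13e-08 to 0.000311), beside the rise of Nr5a2. Of 11 nuclear receptors outside the set 3 fell and 0 rose in S534A and 2 fell and 1 rose in WT. In S534A 1 rise was called without untreated S534A array 3, S534A LPS array 2 or WT LPS array 2. Beside this list and the one before it, 31.2% of all genes fell in S534A and 29.9% in WT. Ppara, the fatty acid oxidation receptor, changed by −1.20 ± 0.21 and −0.92 ± 0.21, and Nr1h4, the bile acid receptor, by −1.02 ± 0.19 and −0.69 ± 0.19. Nr0b2, a corepressor-like receptor, changed by −2.04 ± 0.45 in S534A (adjusted p = 0.00116) and −1.09 ± 0.45 in WT (0.0578), a WT value that passed without untreated WT array 4, WT LPS array 2, S534A LPS array 1 or untreated S534A array 1 or 3 (0.00946 to 0.0451). Hnf4a changed by 0.17 ± 0.08 in S534A (0.101) and rose by 0.28 ± 0.08 in WT (0.0101), but not with median centring or without the 3 clock arrays (0.124 and 0.123). Between genotypes 1 of all these pathway genes passed: Igfbp1, of the glucocorticoid list and named after its value was seen, differed by 2.00 ± 0.27 between untreated S534A and WT livers (limma adjusted p = 0.0168). That call was lost without untreated WT array 1 or untreated S534A array 2, 3 or 4 (differences of 1.88 to 2.02, adjusted p of 0.0521 to 0.113). It was also lost without the 3 clock arrays (1.77, 0.385), with only the groups compared (0.255) and with each probe set tested by itself (0.0667).

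**Figure D5:**
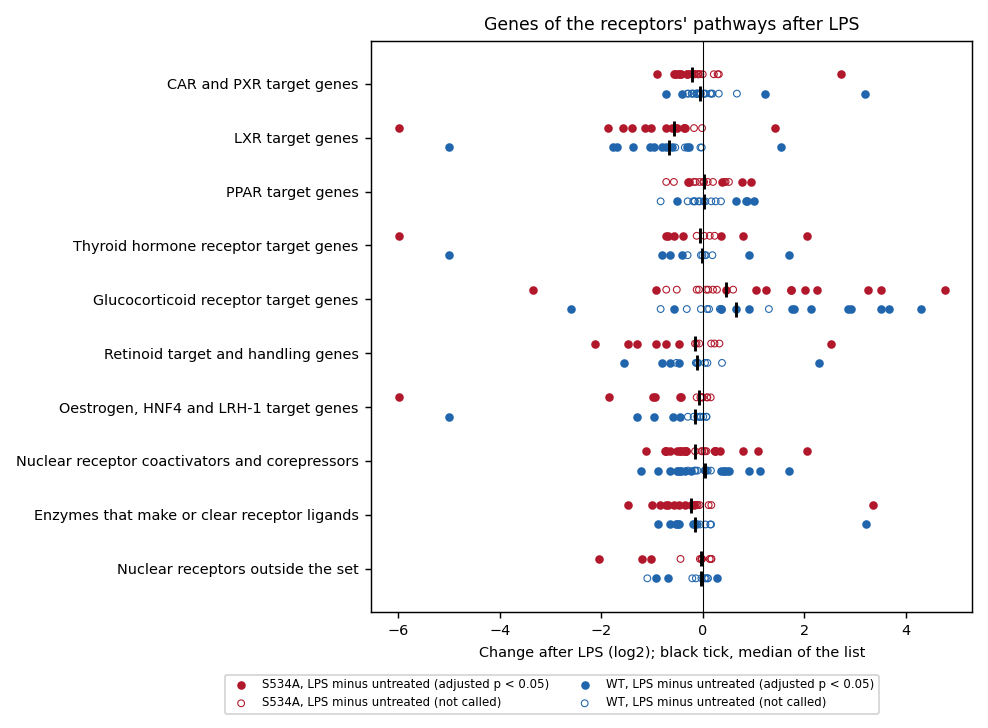
Change after LPS (x axis, log2) of every tested gene of the 10 pathway lists (rows), S534A in red above WT in blue, filled where the limma adjusted p is under 0.05, with the list's median as a black tick. Medians lie at −0.57 (S534A) and −0.67 (WT) for LXR targets and at 0.46 and 0.66 for glucocorticoid targets, and near 0 for PPAR targets.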

How the data were processed

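The authors deposited 1 table of log2 expression values for 35556 probe sets and 16 arrays, made with RMA per the submitters' processing notes (software version and probe set level: not given in the sources used here). Values ran from 3.49 to 14.54. Scanner files were not used, precision is limited by the number of arrays, and background per probe was not examined.

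Of the probe sets, 21789 carried 1 gene symbol in the platform annotation, 1621 several and 12146 none; 21698 matched RefSeq genes of GRCm38.p6 by identifier. Probe sets above the 30th percentile of their array on at least 4 of 16 arrays were kept (26037), and the probe set of highest mean stood for a gene, giving 15908 genes. Every measured receptor had a single probe set. A linear model by limma 3.58.1 (R 4.3.3, moderated by eBayes) was fitted to 4 group means over all arrays (12 residual degrees of freedom, prior 4.28) with two-sided tests and Benjamini-Hochberg adjustment over 15908 genes at 0.05. Standard errors of a change had a median of 0.0991. The fit was tested on simulated data. Promoter windows came from RefSeq (GRCm38.p6), and plots from Python 3.11.15 with matplotlib 3.10.9.

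The receptors, the lists and the rules were chosen with earlier results of these data known. Named were all receptors by role, values in every array for those changing at least 2-fold after LPS and for Rxra, Nr3c1, Nr1h3 and Thrb, the 3 of lowest p between genotypes, and up to 4 genes of lowest p from each pathway list. The 10 pathway lists hold targets of CAR and PXR, LXR, PPAR, thyroid hormone, glucocorticoid and retinoic acid receptors and of the oestrogen receptor, HNF4 and LRH-1, coregulators, ligand enzymes and other nuclear receptors, and some genes stand in several. The 8 marker lists cover hepatocytes, Kupffer, sinusoidal endothelial and stellate cells, neutrophils, monocytes, T, NK and B cells and cholangiocytes. Alternatives were other filters and probe set rules, a replicate block, median centring, array quality weights, quantile normalization applied again, eBayes with trend and robust settings, only the groups compared, other thresholds, the clock score as covariate, the 3 arrays of shifted clock left out, and each array left out in turn. The lists were run under these alternatives after their values had been seen.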

Additional observations from a re-analysis of the deposited data

Results flagged for a closer look

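Within groups of 4 arrays, 10 of the 124 receptor and group combinations held an array whose gap to its nearest neighbour was a larger share of the group's range than Dixon's 95% critical value allows. Chance alone flags about 1 in 20. Nr4a1 stood out at 9.32 in untreated WT array 2, with the others at 6.62 to 7.01, and at 8.14 in WT LPS array 2, with the others at 7.82 to 7.86. Untreated WT array 2 was also apart for Nr2f1 at 6.26, above 6.11 to 6.12, and for Rarg at 7.15, below 7.22 to 7.24. WT LPS array 2 was apart for Nr2c2 at 8.66, above 8.40 to 8.42.

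The remaining arrays were spread over the groups. Nr1i2 was at 10.25 in untreated S534A array 2 (others 10.05 to 10.08) and Rxra at 11.21 in untreated S534A array 3 (others 11.34 to 11.37), which is among the 3 arrays of shifted clock. Nr5a2 was at 10.97 in S534A LPS array 1 (others 10.73 to 10.76). Rxrg was at 9.21 in WT LPS array 3 (others 9.73 to 9.80), and Pgr at 5.42 in WT LPS array 4 (others 5.19 to 5.22), near the filter level.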

How the results depend on the processing

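Over 30 alternatives, 4594 receptor values were recomputed. The side of the threshold held for 4532, which include 154 that changed sign with neither value called. A call was lost by 42 and gained by 20, and no called value turned its direction. Among alternatives that kept the 0.05 threshold and no fold minimum, all 22 calls of S534A and 19 of the 22 of WT held wherever the receptor was tested. Nr4a3 did not pass the filter at the array median and was not tested there, which left 21 calls in S534A. The exceptions in WT were Ppard, Nr3c2 and Nr6a1. With at least a 1.5-fold change required as well, 13 receptors were called in S534A and 11 in WT, beside 20.7% and 19.9% of all genes. Leaving out 1 array at a time gave 22 to 23 receptors in S534A and 19 to 23 in WT after LPS, 0 in S534A against WT after LPS, 0 to 1 without treatment and 0 to 1 for the interaction, the call in both being Nr4a1 without untreated WT array 2. Array quality weights also gave 1 without treatment. Median centring moved the median of all genes from −0.03 to −0.13 in S534A and from −0.05 to −0.16 in WT, and the share of rises among calls was 31.2% against 21.5% in S534A and 33.3% against 22.1% in WT. Nr1d2, outside the set, stood at −0.56 in WT after LPS (limma adjusted p = 0.00543) without the 3 arrays of shifted clock, against 0.06 with all arrays, which was not called; the cause was not tested. Deviations of same-numbered arrays correlated by −0.49 to 0.23 for number 1, −0.30 to 0.59 for number 2, −0.06 to 0.59 for number 3 and −0.35 to 0.20 for number 4 (means of −0.12, 0.00, 0.18 and −0.04), and 6 of 16 arrays correlated best with their own number. Each number held a pair under 0.1, so numbers were not taken as pairs. With the replicate number as a block, 22 receptors were called in each genotype after LPS and 0 between genotypes, as without it, and Igfbp1 was not called between untreated S534A and WT livers (limma adjusted p = 0.0882). Over all genes, that comparison had 2 calls, 370 with array quality weights, and 0 to 7 without single arrays.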
